A study of Bruguiera gymnorhiza with 19 samples.

Results

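Leaves of Burma mangrove (*Bruguiera gymnorhiza*) were compared for how their transcript levels moved in the first 6 h of salt stress and of osmotic stress. The quantity is a difference of responses: the change in NaCl (NaCl 6 h minus NaCl 0 h) minus the change in sorbitol (sorbitol 6 h minus sorbitol 0 h). The 4 groups it needs were taken by the agent and time in the labels, 3 samples each, which makes 12 of the 18 samples of the series and 13 of its 19 arrays, since NaCl 0 h C was hybridised on an extra array and both arrays were averaged. All plants had an age of 3 years and 7 months and came from germinated viviparous seeds grown in vermiculite, with no genotype or line named. For the NaCl 6 h group the culture water had been exchanged for 500 mM NaCl, and for the sorbitol 6 h group for 1 M sorbitol. The NaCl 0 h and sorbitol 0 h leaves were cut just before each exchange, so neither had met its agent. Leaves kept for 6 h without an agent are not among the samples, and NaCl and sorbitol were given at 1 concentration each. The samples A, B and C of a group are called biological replicates, with no word on whether each came from its own plant, and the p-values speak only for the spread among these samples, which may be technical.

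A mangrove rooted in sea water draws water against a low external water potential while keeping sodium and chloride from building up in the cytosol of its leaf cells. NaCl lowers the water potential around the roots and also brings ions that can enter the plant. Sorbitol, an uncharged sugar alcohol, lowers the water potential without adding salt ions. In other plants an osmotic response runs largely through abscisic acid and the synthesis of compatible solutes, whereas a salt response adds sodium transport out of the cell and into the vacuole. The probes carry clone (Bg) or contig (CL) names with no gene description, so no pathway and no leaf marker could be looked up, and the transcripts are named here by probe.

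Signal was read from 1 colour (Cy5), and a level is a log2 intensity after quantile normalization. Levels of different probes are not on a common scale and are not compared. A probe counted as detected in a sample where it exceeded the 95th percentile of the 70 negative control spots. Of 11997 mangrove probes, 8655 that passed this limit in 3 or more of the 18 samples were tested. The median intensity of the 13 arrays ran from 52.9 to 1729. Low-signal arrays were NaCl 6 h C and both sorbitol C arrays (6 h and 0 h), where 2126 to 3216 probes read 0, while the other 10 arrays had up to 82 such probes. A probe is called where the limma adjusted p (Benjamini-Hochberg over the 8655 probes) was under 0.05.

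At 6 h, 25 probes were called in the difference of responses, 0.289% of those tested. The response to NaCl was the more positive in 5 (0.0578%) and the more negative in 20 (0.231%). By adjusted p the clearest were CL1079Contig1_440_479, Bg04-24_G04_390_424 and Bg04-17_B15_512_550, raised in sorbitol with no called NaCl change, and Bg01-04_G02_513_547, raised in NaCl. The limma adjusted p of these ran from 0.000763 to 0.00527. The largest difference was that of Bg05-07_H14_769_803, also raised in NaCl (5.72, adjusted p = 0.0128), and 5 of 33 other fits did not call it. An alternative, chosen after seeing the data, removed from each array a smooth surface over its rows and columns. With it, 7 of the 25 probes were also called and 18, Bg01-04_G02_513_547 among them, were not. The number called depended on single samples, with 5 probes if NaCl 6 h B was left out and 378 if NaCl 0 h C was. It also depended on the model, with 270 probes if the letter A, B or C was fitted as a replicate block. The probes called in the same direction under both agents numbered 125 (1.44% of those tested). A further 1180 (13.6%) were called under NaCl alone and 145 (1.68%) under sorbitol alone. These counts come from tests of each change, whose confidence intervals had a typical half-width of 0.632. For the difference of responses the half-width was 0.894, so these counts cannot be weighed directly against the 25.

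The sequences of the probes on which the comparison turns are given 5′ to 3′ in lower case, as the scanner files list them. The first set holds the probes raised in sorbitol and called in both fits.

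CL1079Contig1_440_479: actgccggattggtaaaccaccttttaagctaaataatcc
Bg04-24_G04_390_424: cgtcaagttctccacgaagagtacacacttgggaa
Bg04-17_B15_512_550: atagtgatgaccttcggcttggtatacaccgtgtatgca
Bg04-04_L05_321_355: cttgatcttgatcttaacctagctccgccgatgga

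The next set holds 3 further probes, described one by one below, in which the NaCl change was called, upward in the first and second and downward in the third.

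Bg05-07_H14_769_803: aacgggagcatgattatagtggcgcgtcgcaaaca
Bg01-04_G02_513_547: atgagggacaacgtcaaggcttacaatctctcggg
Bg02-10_L19_373_410: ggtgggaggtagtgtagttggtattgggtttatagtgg

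The fifth probe raised in sorbitol and called in both fits, Bg02-10_E22_336_373, overlaps a contig probe, and capitals mark the 31 bases they share.

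Bg02-10_E22_336_373: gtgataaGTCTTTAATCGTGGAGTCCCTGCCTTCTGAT
CL417Contig1_296_332: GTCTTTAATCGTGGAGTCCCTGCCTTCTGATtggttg

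The last pair holds the probes that rose most under both agents.

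CL177Contig1_346_381: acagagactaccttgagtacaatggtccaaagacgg
Bg05-10_D05_200_234: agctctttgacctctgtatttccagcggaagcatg

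Among the probes raised in sorbitol, CL1079Contig1_440_479 had log2 intensities of 6.81, 6.52 and 7.55 in NaCl 6 h, and of 7.69, 6.60 and 6.84 in NaCl 0 h. It had 10.90, 10.80 and 11.74 in sorbitol 6 h, and 6.97, 7.13 and 6.80 in sorbitol 0 h. The 3 sorbitol 6 h samples stood above all 9 others, and none of those 9 exceeded the negative controls. At 6 h the level in sorbitol was at least 8.77-fold that in NaCl and at least 7.05-fold that in sorbitol 0 h, bounds because the dimmer groups lay below background. The fit put the difference of responses at -4.26 (95% interval -5.36 to -3.16, limma adjusted p = 0.000763), with a sorbitol change of 4.18, sizes that are not exact because 3 of the 4 groups lay below background.

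Bg04-17_B15_512_550 had log2 intensities of 9.06, 8.50 and 8.60 in NaCl 6 h, and of 8.41, 9.26 and 9.31 in NaCl 0 h. The sorbitol 6 h samples had 12.06, 11.89 and 12.28, and the sorbitol 0 h samples 8.99, 8.94 and 9.23. The sorbitol groups were apart and the NaCl groups overlapped. Sorbitol changed the log2 level by 3.02 (limma adjusted p = 2.7e-05) and NaCl by -0.27 (adjusted p = 0.644), and the difference of responses was -3.29 (95% interval -4.35 to -2.23, adjusted p = 0.00527).

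Bg04-24_G04_390_424 had log2 intensities of 8.16, 8.04 and 8.67 in NaCl 6 h, and of 8.07, 7.98 and 8.25 in NaCl 0 h. It had 11.81, 11.21 and 11.41 in sorbitol 6 h, and 8.78, 8.88 and 8.43 in sorbitol 0 h. Only sorbitol 6 h stood clear of the other groups, while the NaCl groups overlapped each other. The sorbitol change was 2.78 and the NaCl change 0.19, a difference of -2.59 (95% interval -3.33 to -1.84, limma adjusted p = 0.00194). A second clone, Bg04-04_P17_390_424, carries the identical sequence of 35 bases and was spotted in row 4 of the array, whereas Bg04-24_G04_390_424 lies in row 116. That spot rose in sorbitol too (1.75, adjusted p = 0.00589), its NaCl change was 0.63 (adjusted p = 0.226), and its difference of -1.11 (95% interval -2.16 to -0.07) was not called (adjusted p = 0.239). The duplicate spots thus shared a sign and not a call, and with the position surface removed their differences were -2.29 and -1.49.

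Bg02-10_E22_336_373 had log2 intensities of 10.15, 10.01 and 10.34 in NaCl 6 h, and of 10.43, 11.21 and 10.50 in NaCl 0 h. It had 11.67, 11.28 and 11.92 in sorbitol 6 h, and 9.23, 9.98 and 9.93 in sorbitol 0 h. At 6 h the NaCl samples lay below the sorbitol samples, and at 0 h they lay above them. The difference of responses of -2.46 (limma adjusted p = 0.00921) was the 6 h gap of -1.46 minus a 0 h gap of 1.00, and the 0 h gap was not called (adjusted p = 0.0981). The overlapping contig probe, CL417Contig1_296_332, had a sorbitol change of 1.26 (adjusted p = 0.00344), a NaCl change of 0.04 and a difference of -1.23 that was not called (adjusted p = 0.0764).

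Bg04-04_L05_321_355 was the only probe of the 8655 called in opposite directions by the agents. Its log2 intensities were 7.94, 7.35 and 7.79 in NaCl 6 h, against 8.89, 8.76 and 8.18 in NaCl 0 h. They were 8.99, 9.31 and 8.74 in sorbitol 6 h, against 7.73, 7.91 and 7.32 in sorbitol 0 h, where no sample was detected. The 6 h and 0 h samples did not overlap under either agent. NaCl changed the log2 level by -0.92 (limma adjusted p = 0.0282) and sorbitol by 1.36 (adjusted p = 0.00485), and the difference was -2.28 (adjusted p = 0.0101). It was the 6 h gap of -1.32 minus a 0 h gap of 0.95, present before either agent and not called (adjusted p = 0.0955). With sorbitol 0 h undetected, sorbitol 6 h was at least 1.60-fold above it, and NaCl 6 h was detected in 1 sample only. The sizes of the changes, of the gaps and of the difference are thus not exact. The NaCl call was lost in 7 other fits, among them the fit without NaCl 0 h B (-0.85, adjusted p = 0.122) and the fit with the position surface removed (-0.60, adjusted p = 0.0540), and the call of the difference only without NaCl 6 h B (-2.11, adjusted p = 0.0524). The spot lies in row 175, 2 columns from that of CL1079Contig1_440_479, which was also high in sorbitol 6 h, and the part of this closeness in either value was not tested.

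In Bg05-07_H14_769_803 the difference lay on the NaCl side. Its log2 intensities were 8.88, 12.08 and 12.39 in NaCl 6 h, against 6.35, 7.20 and 6.32 in NaCl 0 h. They were 6.12, 6.80 and 7.04 in sorbitol 6 h, against 6.80, 7.34 and 9.50 in sorbitol 0 h. The probe was detected in all 3 NaCl 6 h samples and otherwise only in sorbitol 0 h C, whose level exceeded that of NaCl 6 h A. Without NaCl 6 h it would not have passed the limit for testing, so its height there is partly set by that limit. NaCl 6 h was at least 6.62-fold above NaCl 0 h and at least 8.91-fold above sorbitol 6 h. The fitted difference of 5.72 (95% interval 3.66 to 7.77, limma adjusted p = 0.0128) was taken against groups below background, so its size is not exact. Without NaCl 6 h B it was 5.23 and was not called (adjusted p = 0.0607), nor was it called from the authors' deposited table (2.49, adjusted p = 0.0636).

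Bg01-04_G02_513_547 was detected in all 12 samples. It had log2 intensities of 11.68, 12.21 and 11.08 in NaCl 6 h, against 10.18, 9.58 and 9.22 in NaCl 0 h. It had 10.23, 9.83 and 9.88 in sorbitol 6 h, against 10.80, 11.16 and 10.88 in sorbitol 0 h. The 6 h samples stood apart from the 0 h samples under both agents, above them in NaCl and below them in sorbitol. NaCl raised the probe by 2.00 on the log2 scale (limma adjusted p = 0.000896), the sorbitol change of -0.97 was not called (adjusted p = 0.138), and the difference was 2.96 (95% interval 2.01 to 3.92, adjusted p = 0.00527). This was the 6 h gap of 1.68 minus a 0 h gap of -1.29, which was not called (adjusted p = 0.0620). At 0 h, before either agent, the NaCl samples already lay below the sorbitol samples. The spot lies in row 8, and with the position surface removed the difference was 2.59 and was not called (adjusted p = 0.0870).

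Bg02-10_L19_373_410 moved the other way. Its log2 intensities were 7.34, 6.46 and 6.82 in NaCl 6 h, none of them detected, against 8.44, 8.95 and 8.64 in NaCl 0 h. They were 8.63, 8.46 and 8.20 in sorbitol 6 h, against 7.18, 7.72 and 7.89 in sorbitol 0 h, where none was detected. The groups of each pair did not overlap. The NaCl change of -1.80 was called (limma adjusted p = 0.00295), the sorbitol change of 0.83 was not (adjusted p = 0.289), and the difference was -2.64 (adjusted p = 0.0259). This was the 6 h gap of -1.56 minus a 0 h gap of 1.08, which was not called (adjusted p = 0.139). At 0 h, before either agent, the NaCl samples already lay above the sorbitol samples. NaCl 6 h was at least 1.58-fold lower than NaCl 0 h, of which 2 samples were detected, and at least 1.33-fold lower than sorbitol 6 h, and sorbitol 6 h was at least 1.07-fold above sorbitol 0 h, so the fitted sizes are not exact. Leaving out NaCl 6 h B, NaCl 0 h B, sorbitol 6 h B, sorbitol 0 h A or sorbitol 0 h B ended the call of the difference, with adjusted p between 0.0509 and 0.104.

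**Figure D1:**
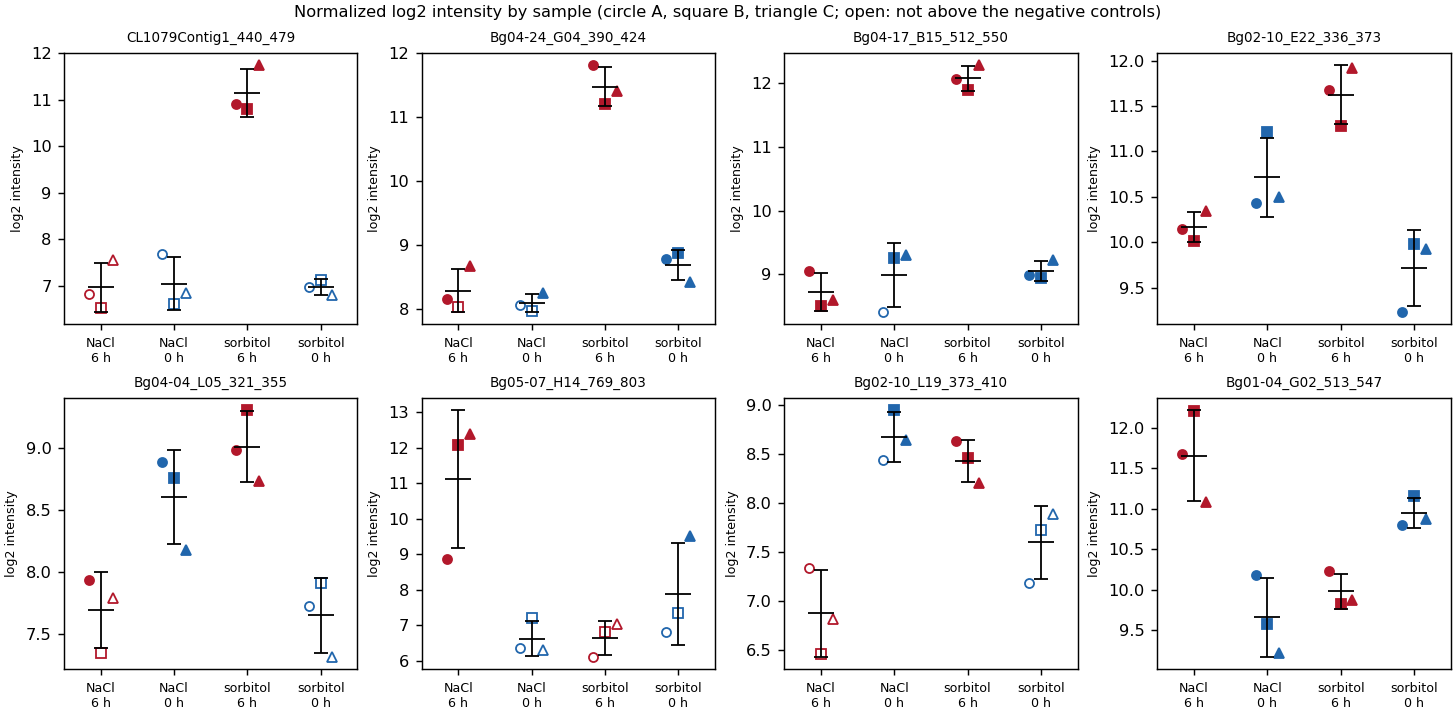
Normalized log2 intensity of 8 probes in NaCl 6 h, NaCl 0 h, sorbitol 6 h and sorbitol 0 h, 1 panel a probe and 1 symbol a sample (A, B, C), with bars for the mean ± SD of 3 samples and open symbols where a probe was not above the negative controls. In the first 3 panels only sorbitol 6 h stands clear, and in Bg05-07_H14_769_803 NaCl 6 h A (8.88) lies far below NaCl 6 h B and C (12.08 and 12.39).

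Of the 20 probes with a more negative NaCl response, 15 were called lower in NaCl, as were 7.61% of all tested probes, 6 were called higher in sorbitol (1.76% of all), and 1 was both. Both changes are terms of the difference by which the 20 were picked, so these shares are partly built in. Their NaCl changes ran from -2.02 to 0.19 (median -1.32) and their sorbitol changes from 0.21 to 4.18 (median 0.58). The sixth probe raised in sorbitol was CL372Contig1_499_533, with log2 intensities of 11.60, 11.28 and 12.10 in NaCl 6 h, 11.59, 12.43 and 11.94 in NaCl 0 h, 12.89, 13.01 and 13.27 in sorbitol 6 h, and 11.55, 11.55 and 11.59 in sorbitol 0 h. Here too the sorbitol groups stood apart and the NaCl groups overlapped. Its difference was -1.82 (limma adjusted p = 0.0405), and -1.29 with the position surface removed (adjusted p = 0.0917).

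Of the 5 probes with a more positive NaCl response, 3 were called higher in NaCl (7.48% of all tested) and 2 lower in sorbitol (1.37% of all). Here too the changes are terms of the difference. CL385Contig1_1074_1108 had log2 intensities of 11.79, 11.48 and 11.77 in NaCl 6 h, against 12.27, 12.20 and 12.73 in NaCl 0 h, and of 10.46, 10.46 and 10.03 in sorbitol 6 h, against 12.75, 12.48 and 12.77 in sorbitol 0 h. It fell under both agents, by 0.72 in NaCl (limma adjusted p = 0.0397) and by 2.35 in sorbitol (adjusted p = 1.39e-06), and the difference of 1.63 (adjusted p = 0.0339) lay in how far. In sorbitol CL140Contig1_674_708 fell by 1.97 (adjusted p = 8.13e-05) and had a NaCl change of -0.23 (95% interval -0.76 to 0.31), a difference of 1.75 (adjusted p = 0.0405). Bg04-23_K11_289_323 rose in NaCl by 1.51 (adjusted p = 0.000581) and had a difference of 1.53 (adjusted p = 0.0494), whose size is not exact because no sorbitol 0 h sample was detected.

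**Figure D2:**
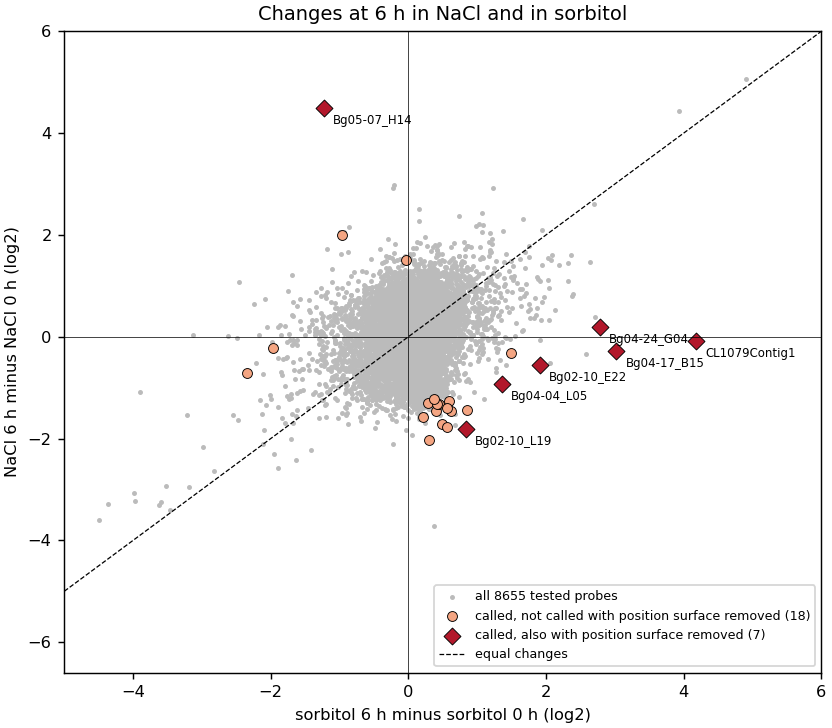
Log2 change in NaCl (NaCl 6 h minus NaCl 0 h, vertical) against log2 change in sorbitol (sorbitol 6 h minus sorbitol 0 h, horizontal) for the 8655 tested probes, with the 25 called in the difference marked. CL1079Contig1, Bg04-17_B15 and Bg04-24_G04 lie along the horizontal axis at sorbitol changes of 4.18, 3.02 and 2.78, and Bg05-07_H14 stands alone at the upper left with a NaCl change of 4.49.

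A difference of responses can come from the 6 h leaves, from the 0 h leaves, or from both. Between NaCl 6 h and sorbitol 6 h, 129 probes were called (1.49% of those tested), and between NaCl 0 h and sorbitol 0 h, before either agent was given, 70 probes (0.809%). Of the 25 probes, 14 were called at 6 h, 5 at 0 h and 0 at both, and in 11 of them the 0 h gap was larger than the 6 h gap. In 23 of the 25 the gaps at 6 h and at 0 h had opposite signs. The difference is the 6 h gap minus the 0 h gap, so picking probes by its size favours gaps of opposite sign. The counts of signs and of larger gaps were not set against all tested probes. Bg04-15_G14_325_359 is an example: its log2 intensities were 10.26, 10.53 and 10.42 in NaCl 6 h, 11.75, 11.94 and 11.45 in NaCl 0 h, 10.74, 10.78 and 10.61 in sorbitol 6 h, and 10.43, 10.51 and 10.33 in sorbitol 0 h. NaCl 0 h was the group that stood apart, the 6 h gap was -0.31 (limma adjusted p = 0.543), and the 0 h gap was 1.29 (adjusted p = 0.00495). Bg02-01_L10_171_205 likewise had a 6 h gap of -0.56 and a 0 h gap of 1.77 (adjusted p = 0.0130).

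The difference of responses also varied with where a probe sat on the array of 224 rows and 56 columns. Over all tested probes in bands of 28 rows, the median difference was 0.42 in rows 1 to 28, 0.57 in rows 29 to 56 and 0.22 in rows 57 to 84. It was -0.19 in rows 85 to 112, -0.40 in rows 113 to 140, -0.46 in rows 141 to 168, -0.32 in rows 169 to 196 and 0.00 in rows 197 to 224. The 200 spots of 1 control oligo (QC-oligoB-AS-3), which are not among the mangrove probes, had medians of the same sign in 6 of the 8 bands, 0.74 in rows 1 to 28 and -0.38 in rows 113 to 140. Of the 20 probes with a more negative NaCl response, 16 lay in rows 113 to 168. These bands held 1034 and 1021 of the 8655 tested probes. Of the 16, Bg04-24_G04_390_424 and Bg05-07_B06_235_269 lay in column 55, Bg04-15_G14_325_359 in column 12, and the others in columns 24 to 40. Bg03-08_E03_95_129 lay within 2 rows and 2 columns of Bg05-21_O13_87_121 and of Bg01-01_I18_161_195. The latter lay as close to Bg04-13_H09_585_619. The columns were not set against all tested probes. In 24 of the 25 called probes the sign was that of the median of the band. From the first band to the last, 17.6%, 10.9%, 31.6%, 62%, 74%, 78.6%, 72.3% and 50.4% of the tested probes had a difference below 0. Of the 4568 tested probes in rows 1 to 112, 4 were called higher and 1 lower (0.109%). Of the 4087 in rows 113 to 224, 1 was called higher and 19 lower (0.489%). Among the 12 samples the spread between band medians was widest in NaCl 0 h A (1.11), NaCl 6 h B (0.95) and NaCl 0 h B (0.82).

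**Figure D3:**
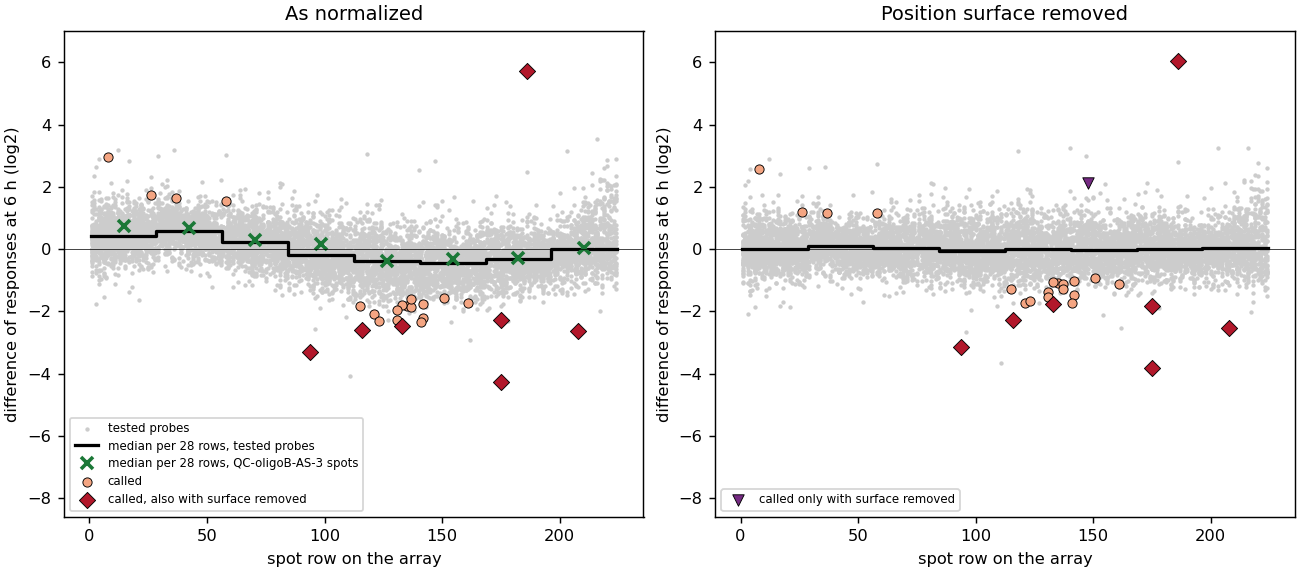
Difference of responses at 6 h (log2, vertical) against spot row (horizontal) for all tested probes, as normalized (left) and with a smooth position surface removed from every array (right), with the median per 28 rows as a black line, control oligo spots as crosses and called probes marked. As normalized the line lies at 0.57 in rows 29 to 56 and at -0.46 in rows 141 to 168, and 16 of the 20 probes called lower lie in rows 113 to 168. Rows 113 to 140 and 141 to 168 hold 1034 and 1021 of the 8655 tested probes.

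With the surface removed, 8 probes were called (0.0924% of those tested), 2 with a more positive and 6 with a more negative NaCl response. They were 7 of the 25 and Bg03-09_B09_241_275, which was singled out after its values were seen. That probe had log2 intensities of 8.60, 8.42 and 8.67 in NaCl 6 h, all detected, against 7.06, 7.58 and 7.17 in NaCl 0 h, and 7.39, 7.44 and 7.69 in sorbitol 6 h, against 6.87, 7.75 and 8.26 in sorbitol 0 h. NaCl 6 h was thus above the other 9 samples, and the difference was 2.12 with the surface removed (limma adjusted p = 0.0172), against 1.41 as normalized (adjusted p = 0.0781). Of the 18 samples only those of NaCl 6 h detected the probe, so it was tested through that group alone. Its standing above the other samples is therefore partly set by the limit for testing. NaCl 6 h was at least 1.13-fold above NaCl 0 h and at least 1.52-fold above sorbitol 6 h, both undetected, so the fitted sizes are not exact.

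All 25 probes kept their sign with the surface removed, and 24 had a smaller difference. They were picked by the difference as normalized, so both counts are partly built in. Neither count was set against all tested probes, over which the SD of the difference was 0.710 as normalized and 0.579 with the surface removed. The 18 that were no longer called had adjusted p between 0.0870 and 0.143, and 14 of them had a more negative NaCl response. In these 14 the median NaCl change was -1.41 and the median sorbitol change 0.46. Their median 0 h gap was 1.05 as normalized and 0.67 with the surface removed, and their median 6 h gap was -0.85 and -0.53. The typical residual SD of a probe was 0.372 as normalized and 0.305 with the surface removed. Whether the array position of these 14 probes accounts for their differences was not tested.

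**Figure D4:**
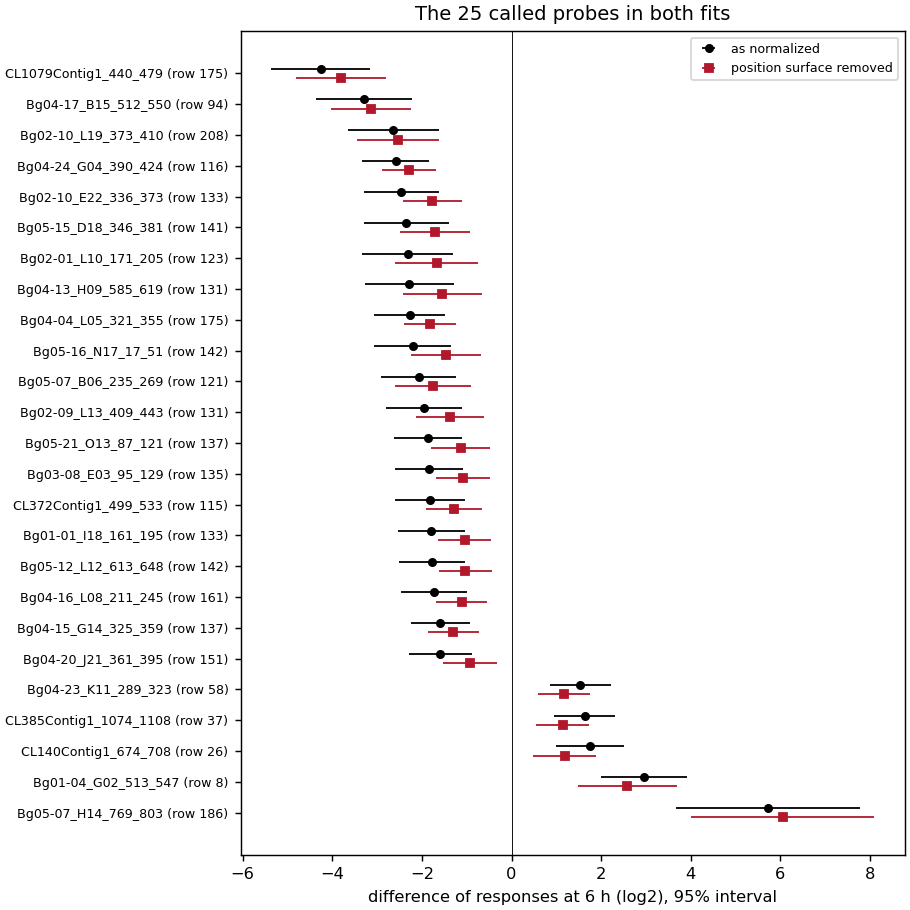
Difference of responses at 6 h (log2) with its 95% interval for the 25 called probes, as normalized (black circles) and with the position surface removed (red squares), with each probe's spot row in brackets. CL1079Contig1_440_479 is at -4.26 and -3.81 and Bg05-07_H14_769_803 at 5.72 and 6.05, the only one of the 25 with a larger difference after removal.

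The 3 tested probes that share bases with a called probe gave a further reading of the shared sequence from another spot. Their clones or contigs have other names than those of the called probes, and whether the transcripts are the same was not tested. CL417Contig1_296_332 (row 116, column 56) lies in the same band of rows as its partner Bg02-10_E22_336_373 (row 133). It also lies beside Bg04-24_G04_390_424 (row 116, column 55), another called probe raised in sorbitol. Beside the pairs described above, Bg04-16_L08_211_245 (row 161, difference -1.73, limma adjusted p = 0.0347) has the same 35 bases as Bg04-17_J19_211_245 (row 71), whose difference of -0.85 was not called (adjusted p = 0.256). The NaCl change was -1.32 in the first (adjusted p = 0.00276) and -0.65 in the second (adjusted p = 0.119). With the surface removed the differences were -1.11 and -0.96, and neither was called.

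Of the 25 probes, 15 (60%) were detected in all 12 samples, against 55.8% of all tested probes. Contigs gave 4 of the 25 (16%), against 11.9% of all tested probes, and the median GC content was 48.6% in both sets.

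The probes that moved alike were those called in the same direction in NaCl (1306 called, 15.1% of those tested) and in sorbitol (271 called, 3.13%). There were 125 of them, 71 higher and 54 lower. CL177Contig1_346_381 had log2 intensities of 15.31, 15.57 and 15.38 in NaCl 6 h, against 11.12, 9.96 and 10.01 in NaCl 0 h, and 14.82, 14.73 and 15.04 in sorbitol 6 h, against 9.31, 9.77 and 10.82 in sorbitol 0 h. All 6 h samples were far above all 0 h samples, with changes of 5.06 in NaCl (limma adjusted p = 1.17e-08) and 4.90 in sorbitol (adjusted p = 1.06e-08). The difference was 0.16 with a 95% interval of -0.86 to 1.18, and NaCl 6 h B was at the scanner ceiling for this spot, which limits the NaCl value from above.

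Bg05-10_D05_200_234 had log2 intensities of 15.57, 15.84 and 15.34 in NaCl 6 h, against 10.89, 11.18 and 11.38 in NaCl 0 h, and 15.11, 14.78 and 14.82 in sorbitol 6 h, against 10.87, 11.16 and 10.90 in sorbitol 0 h. It too was at the ceiling in NaCl 6 h B. Changes were 4.43 in NaCl and 3.93 in sorbitol, and the difference of 0.51 (95% interval -0.22 to 1.23) was -0.02 with the position surface removed. CL286Contig1_635_669 changed by 2.61 in NaCl (limma adjusted p = 0.000176) and 2.69 in sorbitol (adjusted p = 9.76e-05), a difference of -0.08 (95% interval -1.13 to 0.96).

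Among probes that fell under both agents, Bg01-08_I17_100_134 had log2 intensities of 8.57, 8.21 and 9.30 in NaCl 6 h, against 12.28, 11.91 and 12.66 in NaCl 0 h, and 8.78, 8.17 and 8.08 in sorbitol 6 h, against 12.95, 13.21 and 12.36 in sorbitol 0 h. The 6 h samples lay below the 0 h samples under both agents, with changes of -3.59 in NaCl and -4.50 in sorbitol, and a difference of 0.90 (95% interval -0.02 to 1.83). In Bg05-21_D01_228_265 the NaCl change was -3.22 and the sorbitol change -3.97, which left a difference of 0.75 with an SE of 0.84. Bg01-04_G19_137_171 was detected in all 0 h samples and in no 6 h sample, at least 5.61-fold lower in NaCl 6 h than in NaCl 0 h and at least 7.45-fold lower in sorbitol 6 h than in sorbitol 0 h, so its difference has no measured size.

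**Figure D5:**
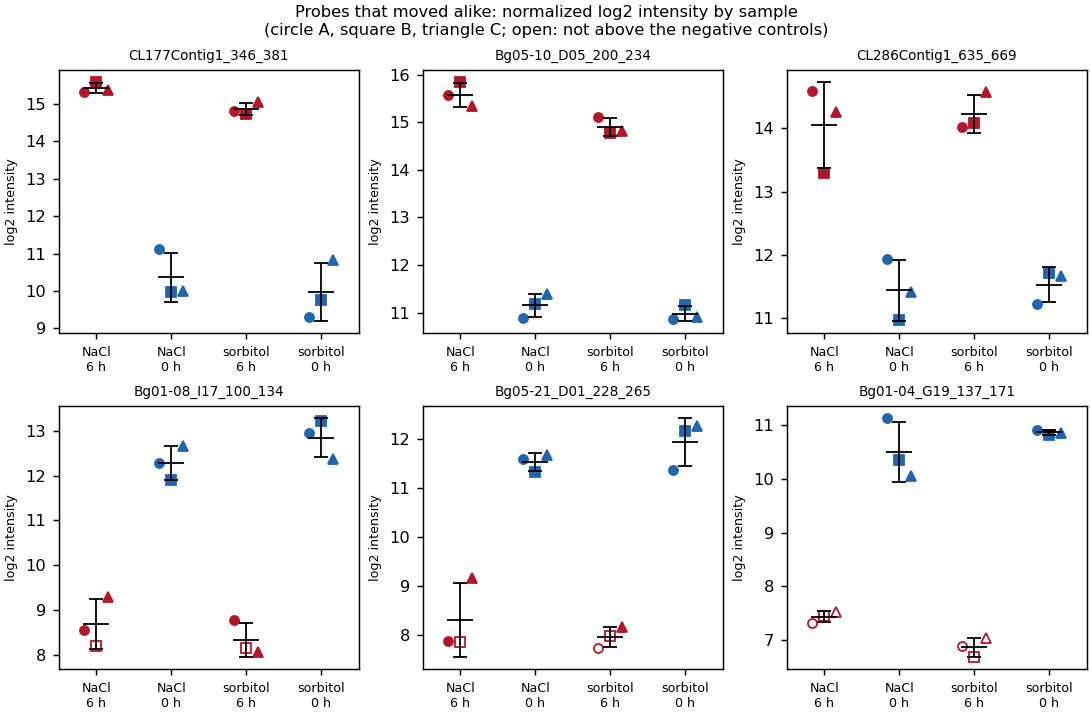
Normalized log2 intensity of the 3 probes with the highest and the 3 with the lowest mean change among those called in the same direction in NaCl and sorbitol, in NaCl 6 h, NaCl 0 h, sorbitol 6 h and sorbitol 0 h, with mean ± SD of 3 samples and open symbols where a probe was not detected. In every panel the 6 h samples of both agents lie on the same side of the 0 h samples.

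The 125 were picked by the same changes from which the difference is computed, so the comparisons with all tested probes are partly built in. Over the 125 probes the median size of the difference was 0.352 on the log2 scale, against 0.465 over all 8655. The difference was called in 1 of the 125 (0.8%, against 0.289% of all tested), CL385Contig1_1074_1108, and in 12 (9.6%, against 18.6% of all) it had an unadjusted p under 0.05. An interval that lay wholly within 1 of 0 was reached by 33 of the 125 (26.4%), against 12.8% of all tested probes. The typical half-width of the interval was 0.837 among the 125, and in the other 92 the interval still held a difference of 2-fold or more. Of the probes called under NaCl alone, 1180, the difference was called in 17 (1.44%), and of those called under sorbitol alone, 145, in 6 (4.14%), against 0.289% of all tested. The called change is a term of the difference, so shares above that of all tested are partly built in. A call under 1 agent alone mostly came without a called difference.

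At 24 h the same difference used the same 0 h samples, so the values of both times are not independent. It was called in 12 of the 25 probes, with the same sign, against 176 of the 8655 (2.03%). CL1079Contig1_440_479 stood at -3.03 at 24 h (limma adjusted p = 0.00319), Bg04-17_B15_512_550 at -3.17 (adjusted p = 0.00148) and Bg04-04_L05_321_355 at -2.66 (adjusted p = 0.000513). Bg05-07_H14_769_803 stood at 1.87 and was not called (adjusted p = 0.338), nor was Bg02-10_L19_373_410 at -0.77 (adjusted p = 0.450). In CL1079Contig1_440_479, Bg04-04_L05_321_355, Bg05-07_H14_769_803 and Bg02-10_L19_373_410 at least 1 group behind the 24 h value was undetected, so these sizes are not exact.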

How the data were processed

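Cy5-labelled cRNA made from 1 µg of leaf RNA was hybridised to 1-colour oligonucleotide arrays, per the labels' protocols. The deposited scanner files hold each spot's foreground intensity (mean and median, not logged), per the file headers. The sources used here do not name the scanner or its software. A deposited table of the authors' normalized intensity served as an alternative, with the 16 columns that lie on 1 common scale.

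Foreground means were corrected with normexp (offset 50). On the 4 arrays of low signal that fit failed, and the foreground plus 50 was used, a choice made after seeing the data. Values were log2 transformed and quantile-normalized over all arrays. The 6 group means of 18 samples were fitted together (lmFit and eBayes of limma, two-sided tests, 12 degrees of freedom left), so the 24 h samples add to the estimate of the spread. Where a group was undetected, "at least" gives the brighter mean over a floor, on each array the lowest value of any detected probe or the probe's own where that was higher. The position surface is a loess fit over row and column (span 0.1) of each array's deviations from the mean of all arrays. The fit was tested on simulated data.

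Named are all probes called in the difference, the 3 highest and 3 lowest of those called alike, those called in opposite directions, and tested probes sharing 20 or more bases with a called one. The comparison, these rules and the lists were chosen with earlier results of these data known. Gene lists and leaf markers that need descriptions were not applied. The number of arrays limits the precision. R 4.3.3, limma 3.58.1, Python 3.11.15 and matplotlib 3.10.9 were used.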

Additional observations from a re-analysis of the deposited data

Results flagged for a closer look

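The response to NaCl differed from the response to sorbitol at 6 h, by the limma test of the difference itself, in 25 probes. Values are log2 differences, NaCl change minus sorbitol change. The response was the more positive in NaCl, and called also with the position surface removed, in Bg05-07_H14_769_803 (5.72). It was the more positive in NaCl, and not called with the surface removed, in Bg01-04_G02_513_547 (2.96), CL140Contig1_674_708 (1.75), CL385Contig1_1074_1108 (1.63) and Bg04-23_K11_289_323 (1.53). It was the more negative in NaCl, and called also with the position surface removed, in CL1079Contig1_440_479 (-4.26), Bg04-17_B15_512_550 (-3.29), Bg02-10_L19_373_410 (-2.64), Bg04-24_G04_390_424 (-2.59), Bg02-10_E22_336_373 (-2.46) and Bg04-04_L05_321_355 (-2.28).

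The response was the more negative in NaCl, and not called with the surface removed, in Bg05-15_D18_346_381 (-2.35), Bg02-01_L10_171_205 (-2.32), Bg04-13_H09_585_619 (-2.28), Bg05-16_N17_17_51 (-2.20), Bg05-07_B06_235_269 (-2.07), Bg02-09_L13_409_443 (-1.95) and Bg05-21_O13_87_121 (-1.87). The remaining probes of this kind were Bg03-08_E03_95_129 (-1.84), CL372Contig1_499_533 (-1.82), Bg01-01_I18_161_195 (-1.80), Bg05-12_L12_613_648 (-1.77), Bg04-16_L08_211_245 (-1.73), Bg04-15_G14_325_359 (-1.59) and Bg04-20_J21_361_395 (-1.59).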

How the results depend on the processing

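None of the 25 called differences changed sign in the 34 other fits. The 25 were picked from the same arrays, and 18 of the 34 fits left out only 1 sample, so kept signs are partly built in. CL1079Contig1_440_479, Bg04-24_G04_390_424 and Bg04-17_B15_512_550 were called in all 33 that gave them a value, Bg02-10_E22_336_373 in 32 of 34, Bg04-04_L05_321_355 in 32 of 33, Bg01-04_G02_513_547 in 30 of 34, Bg05-07_H14_769_803 in 28 of 33, Bg02-10_L19_373_410 in 25 of 33, CL385Contig1_1074_1108 in 14 of 34, CL140Contig1_674_708 in 12 of 34 and Bg04-23_K11_289_323 in 8 of 33. The number of called differences (25, of which 20.0% higher) moved more. It was 38 with no background correction, 5 with median scaling, 16 with the authors' deposited table, 104 with their normalization rebuilt, 9 with no filter on dim probes, 118 if only probes detected in all 12 samples were kept (33.9% higher), 13 from the 12 samples alone (38.5%), 86 if eBayes was trended and robust (31.4%) and 56 with the first array of NaCl 0 h C alone. Treating the 4 low-signal arrays as a block gave 87, and leaving them out gave 17 (35.3%). With the position surface removed it was 8 at each of 3 spans, and 9 if the arrays of lowest signal were left out as well (44.4%), alternatives added after seeing the data. Leaving out 1 sample gave 5 (no NaCl 6 h B) to 378 (no NaCl 0 h C, 46.6% higher). Omitting NaCl 6 h A left 9 (33.3% higher), NaCl 6 h C 16, NaCl 0 h B 7, NaCl 24 h B 14, sorbitol 6 h A 51, sorbitol 6 h B 7, sorbitol 6 h C 10, sorbitol 0 h A or B 8, and sorbitol 0 h C 12.

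For NaCl 6 h against sorbitol 6 h (129 called, 45% higher) the number was 83 with median scaling, 77 for probes detected in all 12 (62.3%), and 45 (no sorbitol 6 h B) to 143 with 1 sample left out. For NaCl 0 h against sorbitol 0 h (70, 37.1% higher) it was 110 for probes detected in all 12, 48 with median scaling (20.8%), 67 from the 12 samples alone (26.9%), 69 with the position surface removed (26.1%), and 20 (no NaCl 0 h B) to 290 (no NaCl 0 h C) with 1 sample left out. For NaCl 6 h against NaCl 0 h (1306) it was 641 with median scaling, 844 without the arrays of lowest signal, and 331 (no NaCl 0 h B) to 2029 (no NaCl 0 h C). For sorbitol 6 h against sorbitol 0 h (271) it was 425 with the surface removed, and 170 (no sorbitol 0 h A) to 301. The causes were not tested. With the letter A, B or C as a replicate block, 270 differences of responses were called (33.7% higher) and 116 probes at 0 h. The labels do not say that a letter marks a shared plant or batch, but all 4 low-signal arrays carry the letter C. The correlation of deviations ran from -0.26 to 0.48 in same-letter pairs (median 0.21, over 0.1 in 11 of 18), against a median of -0.08 (over 0.1 in 7 of 36) for different letters. As not every pair of the 4 groups exceeded 0.1, the unblocked fit was kept. Between the sorbitol groups all 3 did, and there the block gave 337 calls. With 3 samples a group, the interval of a difference typically reached 0.89 to either side, so smaller differences were not resolvable. On the arrays of lowest signal, dim probes were at 0 before correction, and their values there have no order.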
